A study of Mus musculus with 24 samples.

Results

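The comparison is between livers of control mice after 6 weeks and after 2 weeks of chow feeding, measured as mature miRNAs on 1-colour Agilent arrays. Its members are the 310 miRNAs that the scanner software called detected on at least 2 of the 4 arrays concerned, out of 1881 mouse miRNAs on the array. All mice were male C57BL/6NJcl, bought at 5 weeks of age and acclimatized for 1 week, and the control groups then ate the CE-2 chow. The week-2 group was 8 weeks old and the week-6 group 12 weeks old, with 2 arrays each, so that diet time and age are the same variable here. The series also holds control livers of week 1 (7 weeks old, 2 arrays), livers of mice on a choline-deficient high-fat diet that gives steatohepatitis (NASH) at the same weeks with 2 arrays each, and serum, which was not used. Whether 2 arrays of 1 group are separate mice is not stated, and p-values then measure only how far such arrays differ, which may be technical.

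MicroRNAs are short RNAs, cut from a hairpin precursor, that guide the Argonaute protein to messenger RNAs. Target choice depends mainly on the seed, bases 2 to 8 from the 5′ end, so miRNAs with 1 seed form a family with overlapping targets. In liver, miR-122 is the classic hepatocyte miRNA and acts in lipid and cholesterol metabolism, miR-192 and miR-194 share a hepatocyte-enriched precursor, and miR-21, miR-199a and miR-214 are followed in stellate cell activation and fibrosis. The let-7 family is high in adult tissues, liver included.

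The mature sequences of the miRNAs on which the results turn are given from RefSeq (GRCm38.p6), 5′ to 3′, with the seed in capitals. These are the miRNAs with the largest higher values at week 6, shown because their base composition is described later; miR-3960, the other of the 10 largest, is only named.

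miR-3102-5p: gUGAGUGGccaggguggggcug
miR-211-3p: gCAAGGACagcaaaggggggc
miR-8110: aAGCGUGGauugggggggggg
miR-5126: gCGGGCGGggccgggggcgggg
miR-8101: gGCGAGCGgagccggaggagcc
miR-1188-3p: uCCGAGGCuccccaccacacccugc
miR-7118-5p: uGGGGAAGgcgggagagggaac
miR-2137: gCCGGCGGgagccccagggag
miR-1895: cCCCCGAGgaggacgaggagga

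The following are lower at week 6 or are reference miRNAs of liver, and let-7b-5p and let-7i-5p show a shared seed.

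miR-31-5p: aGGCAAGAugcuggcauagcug
miR-31-3p: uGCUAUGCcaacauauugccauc
miR-335-5p: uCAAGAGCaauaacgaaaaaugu
miR-6412: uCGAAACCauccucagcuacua
miR-30e-5p: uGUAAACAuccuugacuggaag
miR-451a: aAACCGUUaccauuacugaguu
miR-192-5p: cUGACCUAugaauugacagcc
miR-21a-5p: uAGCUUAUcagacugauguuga
let-7b-5p: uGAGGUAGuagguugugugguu
let-7i-5p: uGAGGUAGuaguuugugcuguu

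The 9 sequences of the higher set had 9 different seeds and a GC content between 66.7% and 100.0%. In the GRCm38.p6 annotation miR-3102-5p lies at chr7:100882388-100882409 on the minus strand within the span of Arhgef17, miR-211-3p at chr7:64205868-64205888 on the plus strand within Trpm1, and miR-5126 at chr1:84695890-84695911 on the plus strand within Dner. Among the lower set, miR-335-5p lies at chr6:30741314-30741336 on the plus strand within the imprinted gene Mest, and miR-30e-5p at chr4:120772660-120772681 on the minus strand within Nfyc. The annotation table has no strand or exons for these genes, so whether they are exonic or intronic was not determined here.

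Levels are given as log2 of the background-subtracted probe signal divided by the array's own scale, and values under a common floor of -5.48 were set to it. The 4 arrays detected between 253 and 306 miRNAs, and the lowest number belongs to week 6 replicate 1. All 4 lay on 1 slide, week 2 in slide column 1 and week 6 in slide column 3, so week cannot be told apart from the column. The week-2 replicates correlated at 0.996 and the week-6 replicates at 0.987 over the 231 members detected on all 4 arrays. Week 6 replicate 2 correlated at 0.992 with week 2 replicate 1, closer than with its own replicate. All 4 hepatocyte markers (miR-122-5p, miR-192-5p, miR-194-5p and miR-148a-3p) were detected on all 4 arrays, while none of the 3 skeletal muscle and none of the 3 pancreas markers was among the 388 liver miRNAs tested.

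No miRNA passed the test between week 6 and week 2. Over the 388 liver miRNAs, limma with Benjamini-Hochberg adjustment called 0 (0%) at an adjusted p below 0.05. At an unadjusted p below 0.05 there were 33 higher (8.51%) and 15 lower (3.87%), all of them members. Which direction had more depends on the processing. No scaling gave 31 higher and 3 lower, and the mean of probes 32 and 18. Scaling over all probes gave 15 and 16, median scaling 24 and 33, and quantile normalization 26 and 35. With the trend by GC content removed from each array there were 15 higher and 74 lower of 336. The count of adjusted calls depends on the scaling and on single arrays. With no scaling 15 passed, 13 of them higher, among them miR-3960, miR-211-3p, miR-8110, miR-5126, miR-8101, miR-2137 and miR-1895. Scaling over all probes gave 7, all lower. The count of adjusted calls also rose in fits without a week-2 array, which leave 1 array in that group. Calls there included miR-3475-5p, miR-702-3p, miR-7241-5p and miR-7080-3p, whose week-6 mean lay at the floor of -5.48. Tied floor values can make such p-values too small. The lowest adjusted p was 0.0838, for miR-3968, named here after its values were seen, whose difference was -0.33 ± 0.04 (SE). Its level was 4.61 and 4.65 on the week-2 arrays and 4.33 and 4.27 on the week-6 arrays, and NASH livers gave a difference of -0.31 over the same weeks.

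The 2 arrays of week 6 lay wholly above those of week 2 for 56 of 388 miRNAs (14.4%) and wholly below for 69 (17.8%), and these were all members. The median difference of the 310 members was -0.04, and that of the 231 detected on all 4 arrays was -0.06. Within these 231, 26 differences exceeded 0.5 and 5 were under -0.5; 12 exceeded 1 and 0 were under -1. The difference was larger than both replicate gaps for 68 of the 231. In the main processing the higher side therefore held few miRNAs with large differences, and the lower side more miRNAs with small ones. This depends on the processing. With scaling over all probes 22 differences exceeded 0.5 and 49 were under -0.5. Median scaling gave 26 and 7, no scaling 28 and 3, and quantile normalization 25 and 14. With the trend by GC content removed from each array, 15 and 10 of 196 did so.

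miR-3102-5p had the largest difference among members detected on all 4 arrays. Its level was -5.41 and -5.48 at week 2 and -1.51 and -3.37 at week 6. Neither week-2 probe signal was well above background, so the difference of group means is a bound. In the main processing the week-6 mean was at least 7.67-fold higher (fitted difference 3.00 ± 0.81 SE, limma adjusted p = 0.233). That mean is of 2 week-6 arrays that lay far apart, so the bound does not hold for each array. With normexp background correction the fitted difference was 1.02.

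miR-211-3p, the opposite arm of the melanocyte miRNA miR-211, was at -5.26 and -5.48 at week 2 and at -2.13 and -3.47 at week 6, a fitted difference of 2.57 ± 0.64 (SE). Of its week-2 arrays 1 was well above background and the other was at the floor, so the size is uncertain: it was 0.78 with normexp background correction and 3.29 with the total gene signal. miR-3960 was at -2.78 and -3.25 against 0.17 and -1.19. Its difference was 2.51 ± 0.68 (SE). miR-8110 was at -1.90 and -2.32 against 0.34 and -0.39, a difference of 2.08 ± 0.49 (SE). In each of these replicate 1 was the higher array at both weeks. That the 2 groups stood apart was a condition for naming them.

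miR-5126, whose mature sequence is made of G and C alone, was at -0.94 and -1.38 at week 2 and at 1.06 and 0.31 at week 6. miR-8101 was at -4.71 and -5.21 against -2.70 and -3.63. miR-1188-3p, from the span of the imprinted noncoding RNA Rian, was at -4.31 and at the floor against -2.77 and -3.69. The differences of miR-5126 and miR-8101 were 1.85 and 1.79. For miR-1188-3p, well above background on 1 of 2 week-2 arrays, the fitted difference of 1.66 rests on the floor and was 0.46 with normexp background correction.

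The other 3 of the 10 largest were miR-7118-5p (difference 1.24), miR-2137 (1.19) and miR-1895 (1.16). For all 10 the first replicate was above the second at both weeks, and the median SD between replicates was 0.30 at week 2 and 0.59 at week 6. Limma adjusted p ran from 0.233 to 0.380, so none of the 10 passed. Without week 6 replicate 1 the 10 differences ran from 0.82 to 2.08, and with normexp background correction from 0.25 to 1.66, in place of 1.16 to 3.00.

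The week-1 control arrays, on another slide, gave a further set of values for these 10 miRNAs. In 9 of the 10 both week-1 arrays were above both week-2 arrays, and the exception was miR-1188-3p, at the floor on both week-1 arrays. miR-3102-5p was at -1.87 and -3.48 at week 1, miR-8110 at -0.08 and -1.05, and miR-5126 at 0.62 and -0.23. For these 3 the week-1 values were much nearer to week 6 than to week 2. All 4 NASH arrays of weeks 2 and 6 were also above both control week-2 arrays in 10 of the 10. Both NASH week-1 arrays were above both control week-2 arrays in 9 of the 10, again with miR-1188-3p as the exception. The 10 were chosen for low week-2 against week-6 control values, so that their low standing at week 2 is partly built into the choice. The share of all members with the same standing of week-1 or NASH arrays was not computed. Whether these counts are unusual was therefore not tested.

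**Figure D1:**
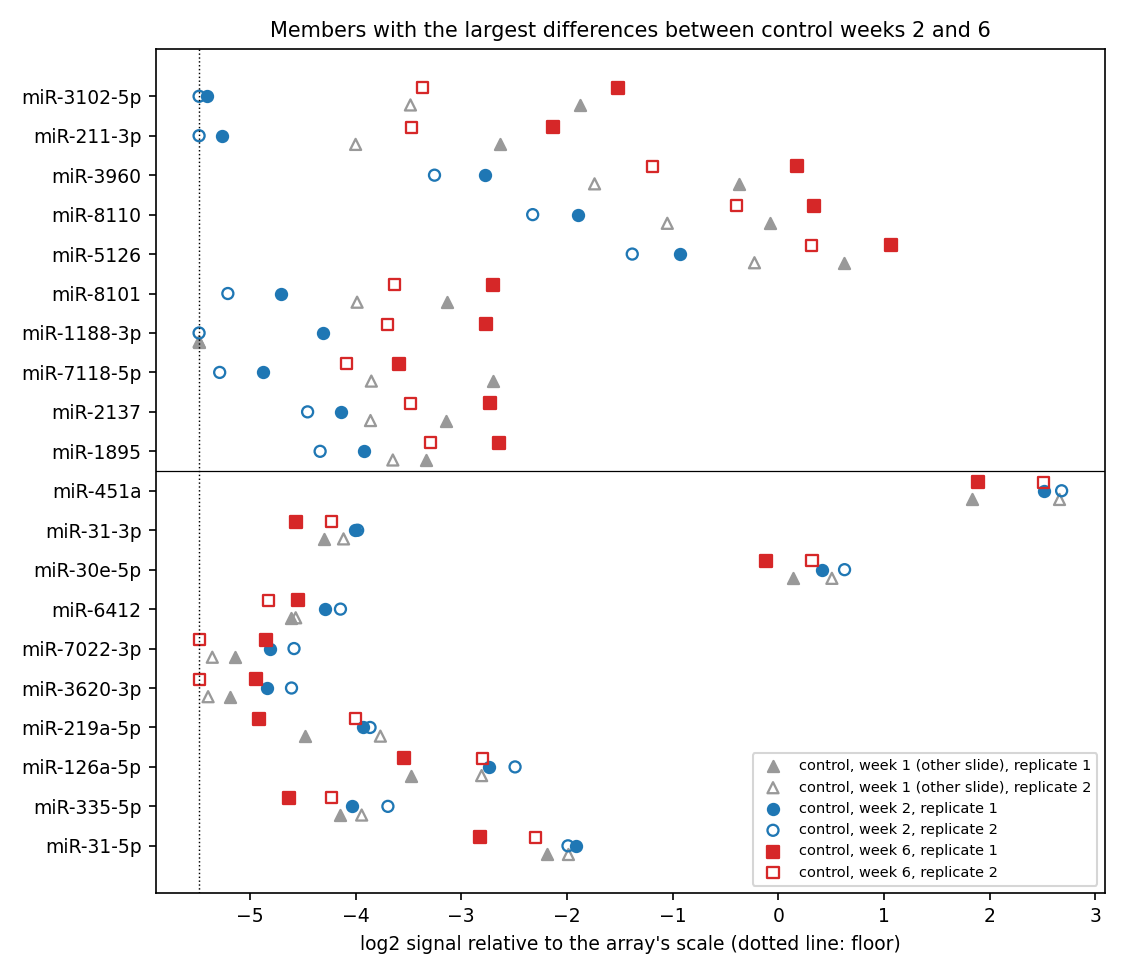
Level (log2 signal relative to the array's scale) of the 10 members with the largest higher and the 10 with the largest lower values at week 6 among those detected on all 4 arrays with groups that do not overlap; each point is 1 array, filled for replicate 1 and open for replicate 2. In the upper 10 the week-6 squares lie 1.16 to 3.00 above the week-2 circles on average and the week-1 triangles lie near the squares in most rows; in the lower 10 the shifts are between -0.61 and -0.40.

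The difference went with the base composition of the miRNA. A single mature sequence was found in RefSeq for 196 of the 231 members detected on all 4 arrays, 84.8%. Over these, the difference correlated with GC content at Pearson's r = 0.63 (Spearman's rho = 0.51), a description across miRNAs that share the same 4 arrays and are not independent replicates. The 34 miRNAs with less than 40% GC had a median difference of -0.16, the 64 from 40% to 50% had -0.11, the 56 from 50% to 60% had -0.05, and the 42 with 60% or more had 0.44. In the last group 26 of 42 were wholly above at week 6 and 7 wholly below, against 1 above and 12 below in the group under 40%.

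Base composition also went with the gap between replicates of 1 group. GC content correlated at 0.56 with replicate 1 minus replicate 2 at week 2, and at 0.56 with the same gap at week 6. It correlated at 0.09 with the NASH week 6 minus week 2 difference over the same miRNAs. miRNA length correlated at 0.07 with the control difference. Across the 12 liver arrays the level changed by between -0.30 (control week 2 replicate 2) and 0.34 (NASH week 6 replicate 1) per 10 percentage points of GC, relative to the mean of all arrays. The part of base composition in the week difference was not tested beyond the fit with the GC trend removed from each array, in which 9 of the 10 largest higher values could be computed and ran from 0.18 to 2.34.

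**Figure D2:**
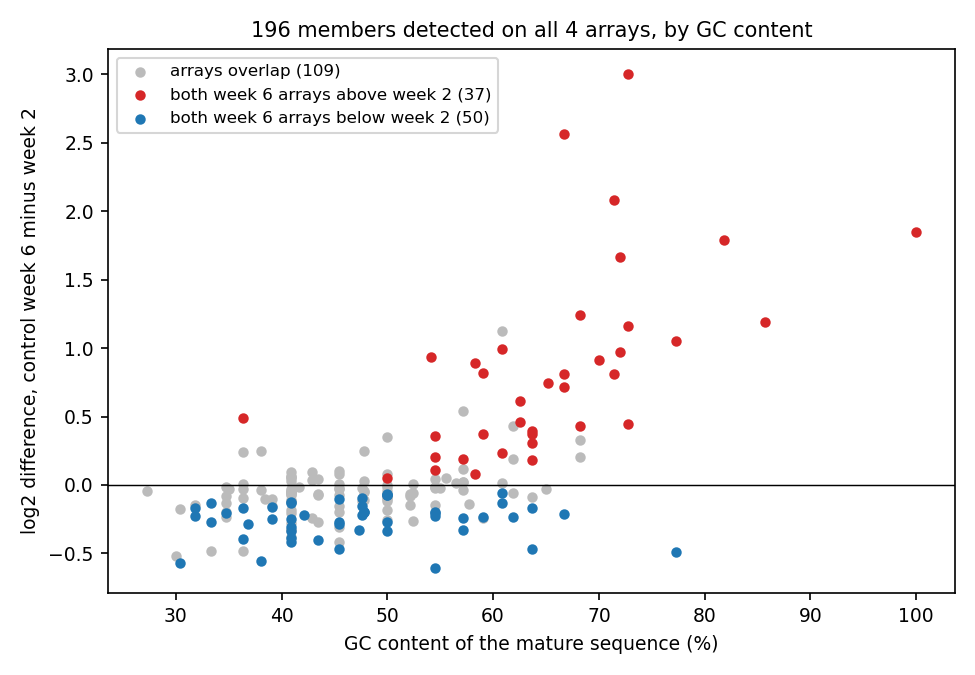
Difference between control week 6 and week 2 (log2) against GC content (%) of the mature sequence for the 196 members detected on all 4 arrays with a sequence; each point is 1 miRNA, coloured by whether the 2 groups of arrays overlap. Differences above 1 occur only at 60% GC or more, and the blue points, wholly lower at week 6, lie mostly below 60%.

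miRNAs with late registry numbers were split in the same way. Of the 112 members numbered 1000 or above, 44 (39.3%) were wholly above at week 6 and 18 (16.1%) wholly below, with a median difference of 0.10. Over all 310 members these shares were 18.1% and 22.3%, and over the 388 tested 14.4% and 17.8%. Of the 198 numbered below 1000, 12 (6.06%) were wholly above and 51 (25.8%) wholly below, with a median of -0.08.

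On the lower side the differences were smaller. miR-31-5p, an epithelial and vascular miRNA, was at -1.92 and -1.99 at week 2 and at -2.82 and -2.30 at week 6, a difference of -0.61 ± 0.17 (SE, limma adjusted p = 0.233). miR-31-3p, from the other arm of the same hairpin, was at -4.00 and -3.98 against -4.56 and -4.23, a difference of -0.40 ± 0.16 (SE). Both arms of miR-31 were thus lower on both week-6 arrays, by less than 1 log2 unit.

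miR-335-5p, which is expressed from the imprinted Mest locus, was at -4.03 and -3.69 at week 2 and at -4.63 and -4.23 at week 6. miR-6412 was at -4.29 and -4.14 against -4.55 and -4.83, a difference of -0.47 ± 0.09 (SE, limma adjusted p = 0.179). miR-30e-5p was at 0.41 and 0.63 against -0.12 and 0.32. The differences of miR-335-5p and miR-30e-5p were -0.57 and -0.42.

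Of the remaining 5, miR-126a-5p and miR-219a-5p had a difference of -0.56 each and miR-451a of -0.40. miR-3620-3p and miR-7022-3p had no week-6 signal well above background, and were at least 1.40-fold and at least 1.39-fold lower at week 6; both differences are 0 with the floor doubled. The limma adjusted p of the 10 ran from 0.179 to 1, so none passed, and 5 of the 10 were also wholly lower on the week-1 arrays than on the week-2 arrays. All 4 NASH arrays of weeks 2 and 6 were below both control week-2 arrays in 10 of the 10. The 10 were chosen for high week-2 against week-6 control values, so the week-1 and NASH counts are partly built into the choice. Here too the matching share of all members was not computed, and whether the week-1 and NASH counts are unusual was not tested. In 7 of the 10 week 6 replicate 1 was the lower of its pair. Without that array the 10 differences ran from -0.79 to -0.09, and without week 6 replicate 2 from -1.02 to -0.16.

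Hepatocyte miRNAs had small differences between the weeks. miR-122-5p was at 7.23 and 7.28 at week 2 and at 7.23 and 7.05 at week 6, a difference of -0.11 ± 0.10 (SE). With scaling over all probes it was -0.41. With quantile normalization it was -0.37 ± 0.0047 (SE) and passed the limma test, and there miR-6366 had 0.37 with the same SE. Quantile normalization gives each rank a fixed value, so such an SE can be too small, and this call is not read as a result. miR-192-5p was at 4.17 and 4.25 against 4.10 and 4.14, a difference of -0.09 ± 0.23 (SE). miR-148a-3p was at 2.45 and 2.62 against 2.05 and 2.40, a difference of -0.31 ± 0.20 (SE).

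All 13 listed hepatocyte-enriched miRNAs were members, and 0 passed the test in either direction. The list's median was -0.11, against -0.04 over all members, with 0 wholly above and 7 wholly below. Over all 310 members 18.1% were wholly above and 22.3% wholly below, which is the background for this and the following list counts. The lowest value, -1.02 for miR-802-5p, named here after its values were seen, rests on 1 week-6 array at the floor. The summed signal of the 4 hepatocyte markers, most of it miR-122-5p, ran from 178 to 186 times the array's scale at week 2. At week 6 it ran from 160 to 177.

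The other 4 miRNAs named for strong signal had mixed signs. miR-6366, with 72.7% GC, was at 7.17 and 6.96 at week 2 and at 7.64 and 7.39 at week 6, a difference of 0.45 ± 0.20 (SE). miR-3963 and miR-5100 differed by -0.33 ± 0.10 and -0.23 ± 0.07 (SE), each wholly lower at week 6. miR-21a-5p was at 4.47 and 4.30 against 4.76 and 4.99, a difference of 0.49 ± 0.47 (SE, limma adjusted p = 0.895), and the week-1 arrays stood higher than either, at 5.25 and 5.08.

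The 2 arms of the miR-21a hairpin differed in sign. miR-21a-3p, named here after its values were seen, was at -4.43 and -4.59 at week 2 and at the floor and -5.41 at week 6, and was well above background on 1 of 2 week-6 arrays. It was wholly lower at week 6 by an amount that rests on the floor, while miR-21a-5p was wholly higher. Over the 21 hairpins with both arms detected on all 4 arrays, 12 had differences of the same sign, and the median gap between arms was 0.28.

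The miRNA families had small, mostly negative medians, and 0 miRNAs of any list passed the adjusted test. Among the 9 members of the let-7 family, which restrain proliferation and share the seed GAGGUAG, 0 were wholly above and 3 wholly below, with a median of -0.09, a count near the background. let-7i-5p had -0.25 ± 0.17 (SE) and let-7b-5p 0.10 ± 0.12 (SE). The miR-17-92 cluster and its paralogs, which promote proliferation, had 9 members, 0 wholly above and 6 wholly below, with a median of -0.20 and 9 of 9 differences negative. miR-17-3p, a passenger arm that the list leaves out, was a member with 0.04 ± 0.08 (SE). miR-19b-3p was at 1.68 and 1.73 at week 2 and at 1.33 and 1.57 at week 6.

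In the miR-30 family 0 of 7 members were wholly above and 3 wholly below (median -0.17; over all members detected on all 4 arrays 19.5% and 24.2%), and in the miR-101 family, known for targeting Ezh2, 0 of 3 and 3 of 3 (median -0.27). miR-101a-3p was at -0.07 and -0.01 against -0.50 and -0.12. All 19 bases of miR-101c lie within the sequence of miR-101a-3p, so the array may not measure them apart. The 3 of 3 may therefore not be separate results. The miR-29 list, for a family that targets collagens, had 5 members with 1 wholly above and 0 wholly below (median -0.19). It counts the opposite arms miR-29c-5p (0.05) and miR-29b-1-5p (0.03), which do not have the seed AGCACCA. Both are named here after their values were seen, and miR-29c-5p is the 1 wholly above. The 3 members with that seed had 0 wholly above and 0 wholly below (median -0.33). The miR-30 list likewise counts miR-30a-3p (0.0018), an arm with another seed, also named after its value was seen. miR-29c-3p was at 1.82 and 1.81 against 0.85 and 1.83, so that its difference of -0.48 came from 1 week-6 array. The 6 members of the miR-15 and miR-16 family had 0 wholly above and 0 wholly below (median -0.07).

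Without week 6 replicate 1 the median of the 5 members of the miR-29 list was 0.01 and that of the miR-15 and miR-16 family 0.03. The medians of the let-7 family (-0.09), the miR-17-92 group (-0.12), the miR-30 list (-0.20) and the miR-101 family (-0.08) stayed negative. Without week 2 replicate 2 the median of the miR-15 and miR-16 family was 0.05, that of the let-7 family -0.02 and that of the miR-30 family -0.05. With the GC trend removed the medians of the let-7, miR-101 and miR-15 and miR-16 families turned positive (0.17, 0.01 and 0.10). Scaling over all probes shifted the median of the 231 members from -0.06 to -0.35 and turned the median of the Sfmbt2 list from 0.02 to -0.17. The medians of the hepatocyte, let-7, miR-17-92, miR-30, miR-29, miR-101 and miR-15 and miR-16 lists were negative under all 4 other scalings.

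Lists for metabolism and growth gave no call. Of 11 members linked to lipid metabolism 0 were wholly above and 2 wholly below (median -0.10), and miR-27b-3p, a regulator of lipid genes, differed by -0.22 ± 0.13 (SE). miR-34a-5p, a target of p53, was at -2.49 and -2.04 at week 2 and at -2.35 and -2.31 at week 6. Of the Dlk1-Dio3 imprinted cluster, high in fetal tissue, 15 of 35 listed miRNAs were tested and 1 was a member, miR-494-3p (difference -0.31). miR-1188-3p, which is not on that list, lies at chr12:109611877-109611901 within Rian, in the same imprinted locus, and was wholly higher at week 6. Of the other imprinted growth loci 3 were members, among them miR-296-5p of the Gnas locus, with -0.21. The list for the Sfmbt2 cluster had 4 members with a median of 0.02. Of these RefSeq places miR-467f at chr11:69635419-69635439 within Fxr2, outside that cluster, and without it the median was -0.04. In this list the level of miR-467b-3p was -2.69 and -2.47 against -1.83 and -3.17, with both week-1 arrays at the floor.

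**Figure D3:**
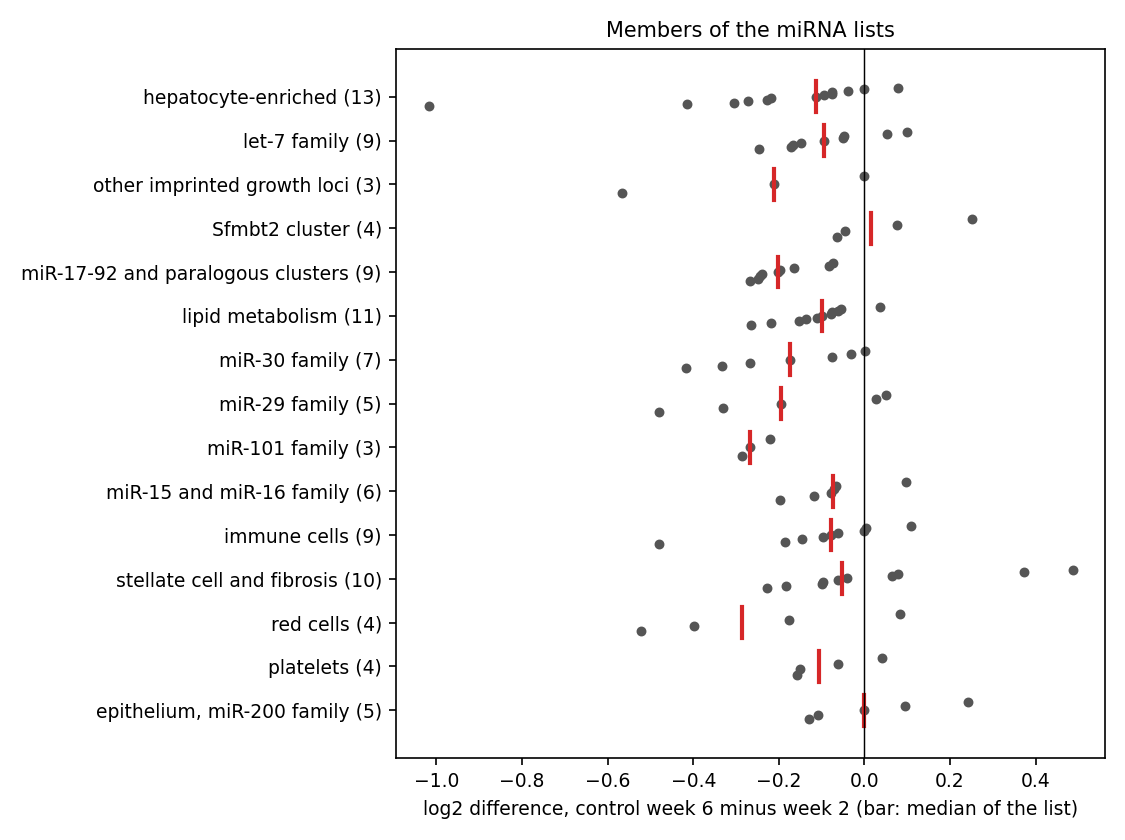
Difference between control week 6 and week 2 (log2) for the members of each miRNA list with at least 3 members; each point is 1 miRNA, the red bar is the list's median and the number of members stands in parentheses. List medians lie between -0.29 and 0.02, and the far left point of the hepatocyte list is miR-802-5p at -1.02.

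miRNAs of other cell types in liver had small differences, and none was called. In bulk tissue fewer cells of a type and less RNA per cell cannot be told apart. Of the 10 members linked to stellate cells and fibrosis 2 were wholly above, miR-21a-5p and miR-214-3p, and 0 wholly below (median -0.05; 0.12 without week 2 replicate 2 and 0.07 without week 6 replicate 1). miR-214-3p, which lies within Dnm3 and Dnm3os, was at -4.51 and -4.37 at week 2 and at -4.23 and -3.91 at week 6, a difference of 0.37 ± 0.14 (SE, limma adjusted p = 0.360).

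The red cell list had 4 members, 1 wholly above, miR-486a-5p (difference 0.08), and 1 wholly below, miR-451a. miR-451a and miR-144-3p, which are made from 1 locus, were lowest on week 6 replicate 1. miR-451a was at 2.51 and 2.68 at week 2 and at 1.89 and 2.51 at week 6. miR-144-3p was at -2.38 and -2.47 against -3.50 and -2.40. Without week 6 replicate 1 the median of the 4 red cell members was -0.0028 in place of -0.29. The summed signal of the 3 red cell markers was 5.92 and 6.62 at week 2 and 3.82 and 5.90 at week 6. Most of this sum is miR-451a, so it is not a separate result.

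The immune list had 9 members with 1 wholly above and 0 wholly below (median -0.08; 0.08 without week 2 replicate 2 and 0.01 without week 6 replicate 1). miR-142a-5p was at -4.20 and -4.08 against -5.40 and -3.84, with week 6 on both sides of week 2. Endothelial miR-126a-3p, from within Egfl7, was at 2.70 and 2.87 against 2.54 and 2.72. The 5 epithelial members had 0 wholly above and 1 wholly below (median 0.00), miR-200b-3p among them with 0.24 ± 0.42 (SE). The 4 platelet members had a median of -0.11, and miR-7a-5p, 1 of the 6 listed for pancreas and neuroendocrine cells, differed by -0.13.

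Some members were called detected in 1 group alone. There were 25 detected on both week-2 arrays and neither week-6 array, and 11 detected on both week-6 arrays and neither week-2 array. For 7 of the 11, among them miR-7080-5p and miR-2861, named here after their values were seen, a bound could be set, from at least 1.12-fold to at least 2.16-fold higher at week 6. For 5 of the 25 a bound could be set on the other side, from at least 1.01-fold to at least 1.17-fold lower. The remaining members not detected on all 4 arrays were 27 with 1 week-6 array missing, 7 with 1 week-2 array missing and 9 with 1 array detected at each week. Of all member values 21.7% lay at the floor.

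The change from week 2 to week 6 was then compared with that in NASH livers, whose arrays lay on the same slide. The difference between diets in this change passed the limma test for 3 of 388 miRNAs (0.773%), 1 of them a member. This was miR-574-3p, at the floor on all 4 control arrays and on both NASH week-6 arrays, and at -5.33 and -5.36 on the NASH week-2 arrays (difference between diets -0.13, limma adjusted p = 0.00568). Values set to the floor are identical, which can make this p too small.

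From week 2 to week 6 NASH livers had 14 calls of 388 (3.61%), 9 lower (2.32%) and 5 higher (1.29%). Of these 7 were members, and chow livers had 0 calls. The chow count moved with the processing, and the NASH count was not taken under the alternatives. The 2 counts are not a test between diets. The 10 miRNAs with the largest higher values on chow had NASH differences between -0.38 and 0.50. Their differences between diets lay between -2.50 and -1.26, with the lowest limma adjusted p at 0.255, so that none passed.

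**Figure D4:**
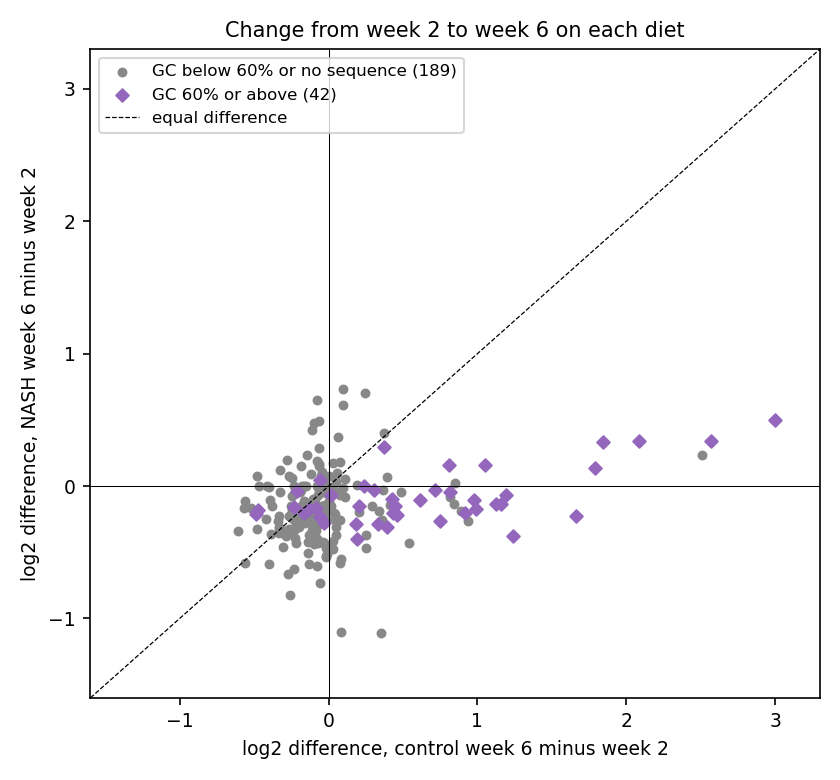
Difference between week 6 and week 2 (log2) in NASH livers against that in control livers for the 231 members detected on all 4 control arrays; each point is 1 miRNA, purple where GC content is 60% or more, and the dashed line marks equal differences. The purple points spread to the right up to 3.00 on chow, while their NASH differences are at most 0.50.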

How the data were processed

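The authors' deposited files hold, per the file headers, spot intensity after background subtraction by Agilent's Feature Extraction software (11.5, per the submitters' processing notes), with no scaling between arrays. Control spots and flagged outliers were left out and spots averaged per probe. Each array was divided by its 75th percentile over 298 probes that were well above background on each of 12 liver arrays, a common floor was set, log2 was taken, and the probe with the highest signal stood for a miRNA. limma (3.58.1, R 4.3.3) was fitted to 6 diet-by-week groups of 12 liver arrays, with Benjamini-Hochberg adjustment over the 388 miRNAs detected on at least 2 of them. Residual degrees of freedom were 6 and prior ones 0.49. The fit was run on simulated data with independent noise per value, which held no ties at the floor and no deviations shared between miRNAs. Sequences from RefSeq matched 268 of 310 members.

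Members and lists were chosen with earlier results of these data known. Named miRNAs were the 10 largest non-overlapping differences per direction among members detected on all 4 arrays, up to 2 per list, the 5 of highest signal, members called for the difference between diets, and 6 fixed ones (miR-122-5p, miR-192-5p, let-7b-5p, miR-34a-5p, miR-467b-3p, miR-451a). Bounds set the mean of the group with signal against the lowest signal well above background on each array of the other group, or the probe's own signal where that is higher, and never exceed the fold of the group means after flooring. Precision is limited by 2 arrays a group. Alternatives changed signal column, background, scaling, probe summary, floor, filter, samples fitted, variance model and replicate block, and left out each array. The fit with the GC trend removed was chosen after seeing the data.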

Additional observations from a re-analysis of the deposited data

Results flagged for a closer look

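miR-574-3p differed between diets in its change from week 2 to week 6 by the limma test of that difference (-0.13 log2, NASH minus control). It was detected on 1 of 2 control arrays at each week by the software's total signal, and its probe was at the floor on all 4.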

How the results depend on the processing

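The count of 0 calls between control weeks 6 and 2 stayed at 0 with normexp background correction, double the floor, only miRNAs detected on all 12 arrays, no filter, fits to 8 or 4 arrays, an intensity trend, a test against 0.5 log2 units, and the replicate block. It became 19 with the total gene signal, 7 with scaling over all probes, 8 with median scaling, 15 with no scaling, 5 with quantile normalization, 2 with the mean of probes, 15 with 0.5 times the floor and 3 with the GC trend removed. Leaving out 1 array also moved the count, but such fits leave 1 array in that group and their counts are not given. Among the calls without a week-2 array were miRNAs at the floor on both week-6 arrays. The calls with quantile normalization include miR-122-5p and miR-6366, where fixed rank values can make the SE too small. The 3 calls for the difference between diets became 10 with the total gene signal, 0 with normexp, 8 with scaling over all probes, 8 with median scaling, 5 with quantile normalization, 0 with 0.5 times the floor, 0 among miRNAs detected on all 12 arrays, and 0 in the fit to 8 arrays, and 3 to 20 with 1 array left out. The cause of these changes was not tested. The labels tie no replicate number to a shared mouse or batch, and 2 numbers are too few to settle pairing from the data. Same-numbered deviations correlated at 0.33 between the control groups of weeks 2 and 6, and at 0.33 to 0.76 over the 6 pairs of groups on the slide, where the numbers follow slide rows. The replicate block gave 0 and 2 calls.

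Of 1130 values of 57 named miRNAs under the alternatives, 1083 kept direction and side of the threshold, 22 newly passed it and 25 changed sign. Changes of filter, of the groups of arrays fitted, of variance model and of replicate block left the differences unchanged. There only the side of the threshold could change, so these values do not test direction. A difference of 0 was counted as kept. miR-574-3p, at 0 in the main processing, was therefore always counted as kept, although it ranged from -0.30 to 0.59. With scaling over all probes miR-467f turned to -0.051, let-7b-5p to -0.20, miR-200b-3p to -0.060 and miR-467b-3p to -0.23, and with normexp miR-467f to -0.0091. Quantile normalization gave miR-15a-5p 0.064. With the GC trend removed miR-6366 was at -0.22, let-7g-5p at 0.14, miR-146a-5p at 0.0038, miR-203-3p at 0.061, miR-101a-3p at 0.13, miR-101c at 0.015, miR-15a-5p at 0.072 and miR-7a-5p at 0.22. Leaving out 1 array moved let-7b-5p between -0.069 and 0.27, miR-467b-3p between -0.59 and 0.74, miR-15a-5p between -0.32 and 0.080, miR-146a-5p between -0.43 and 0.055, miR-34a-5p between -0.29 and 0.16, miR-29c-3p between -0.97 and 0.013, miR-455-5p between -0.87 and 0.042, miR-144-3p between -1.07 and 0.028, miR-142a-5p between -1.26 and 0.30, and miR-7a-5p between -0.30 and 0.036.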
